A study of Mus musculus with 2 samples.

Results

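Aminoacyl-tRNA synthetases are the enzymes that join each amino acid to its own transfer RNA, and their transcripts were measured here in erythroid cells of the mouse line G1E-ER-GATA-1 after siRNA against the corepressor ETO2. The members were the probes whose description in the array files contained the words tRNA synthetase and whose signal was well above background in the same channel on both arrays. The words matched 76 of 41174 probes, and 72 of the 76 passed the signal requirement. Of these, 67 carried the name of a synthetase gene and covered 38 genes out of 16585 genes and transcripts tested. There were 19 cytosolic genes, 17 mitochondrial genes, and 2 genes, Gars and Kars, that each give rise to both the cytosolic and the mitochondrial enzyme. The 4 probes that were not kept belonged to Iars2, to Wars2 and to the clones AK033273 and AK087592, and Iars2 and Wars2 each kept other probes.

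The groups were G1E-ER-GATA-1 cells given ETO2 siRNA and cells of the same line given control siRNA. G1E cells are GATA-1-null, without the master regulator of erythroid genes, and the line has it back as a fusion with an oestrogen receptor domain that β-estradiol activates. All cells were kept in β-estradiol for 24 h after transfection, so the comparison asks which transcripts depend on ETO2 (gene Cbfa2t3) during GATA-1-driven maturation. Each of 2 arrays, replicates 1 and 2, held ETO2 siRNA RNA in green (Cy3) and control siRNA RNA in red (Cy5), and the dyes were not swapped, so an effect of the dye on a probe enters its ratio with the same sign on both arrays. Whether the replicates are separate cultures is not said in the labels, and the p-values may cover technical spread alone.

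Cytosolic and mitochondrial protein synthesis use separate sets of synthetases, nearly all encoded by separate nuclear genes. Several cytosolic synthetases sit together in the multi-synthetase complex, held by the scaffold proteins Aimp1, Aimp2 and Eef1e1. In mammalian cells many cytosolic synthetase genes are known targets of ATF4, the transcription factor of the amino acid response, which binds with C/EBP partners at the composite element TGATGNAA. Maturing erythroid cells make globin in large amounts and need charged transfer RNA for it.

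Of the 5 promoters found to hold this element 3 are shown here, those of Gars and Iars, which rose in ETO2 siRNA cells, and that of Aars, which like Tars and Yars did not pass the test, and the Farsb promoter is shown as that of a risen gene with a CACGTG hexamer (E-box) and without TGATGNAA. Each runs from 250 bases before to 50 bases after the gene's start, 5′ to 3′ on the gene's strand, from RefSeq (GRCm38.p6). Capitals mark TGATGNAA or its reverse complement, and CACGTG, which reads the same on both strands. The motifs did not overlap each other in these 4 windows.
Gars promoter (chr6:55037751-55038050, plus strand): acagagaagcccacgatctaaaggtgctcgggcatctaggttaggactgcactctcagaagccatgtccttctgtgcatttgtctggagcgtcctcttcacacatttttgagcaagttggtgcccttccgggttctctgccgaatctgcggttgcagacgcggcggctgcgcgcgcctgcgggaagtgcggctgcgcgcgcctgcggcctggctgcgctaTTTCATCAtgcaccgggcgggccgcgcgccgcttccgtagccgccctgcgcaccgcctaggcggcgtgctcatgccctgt
Iars promoter (chr13:49681880-49682179, plus strand): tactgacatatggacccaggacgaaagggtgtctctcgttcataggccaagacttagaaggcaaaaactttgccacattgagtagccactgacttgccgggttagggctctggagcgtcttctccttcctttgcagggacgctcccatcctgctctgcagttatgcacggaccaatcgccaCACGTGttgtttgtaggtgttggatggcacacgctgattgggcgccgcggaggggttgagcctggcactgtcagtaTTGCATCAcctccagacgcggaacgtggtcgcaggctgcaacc
Aars promoter (chr8:111033592-111033891, plus strand): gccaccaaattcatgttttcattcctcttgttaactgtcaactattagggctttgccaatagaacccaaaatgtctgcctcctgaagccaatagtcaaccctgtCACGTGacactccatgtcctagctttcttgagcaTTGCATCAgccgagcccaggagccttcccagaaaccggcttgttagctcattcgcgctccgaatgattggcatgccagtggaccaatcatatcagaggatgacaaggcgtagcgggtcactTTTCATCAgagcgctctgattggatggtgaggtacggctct
Farsb promoter (chr1:78488848-78489147, minus strand): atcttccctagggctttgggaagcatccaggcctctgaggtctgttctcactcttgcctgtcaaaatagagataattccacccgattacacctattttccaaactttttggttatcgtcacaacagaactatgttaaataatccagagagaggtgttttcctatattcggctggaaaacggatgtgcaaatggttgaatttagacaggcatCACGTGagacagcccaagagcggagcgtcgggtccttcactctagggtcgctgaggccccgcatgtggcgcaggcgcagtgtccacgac

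RefSeq promoters were matched for 12 cytosolic, 2 dual and 14 mitochondrial synthetase genes, not for others that include Cars, Hars, Lars, Nars, Rars, Vars, Wars, Hars2 and Pars2. TGATGNAA was found in 4 of the 12 cytosolic promoters, those of Aars, Iars, Tars and Yars, in that of Gars, and in 0 of the 14 mitochondrial promoters, against 4.51% of the promoters of 27025 genes. Of these 5 genes, Gars and Iars rose, while Aars, Tars and Yars did not pass the test. CACGTG was found in 4 of 12 cytosolic promoters, those of Aars, Farsb, Iars and Tars, and in 1 of 14 mitochondrial promoters, that of Ears2, against 8.09% of all. A match is a string of letters and not a measured binding site.

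The targeted gene was lower in the ETO2 siRNA cells. Cbfa2t3 had normalized log2 signals of 12.89 and 12.84 in ETO2 siRNA cells on arrays 1 and 2, against 13.28 and 13.30 in control siRNA cells, a log2 ratio of -0.42 ± 0.048 (SD, n = 2 arrays; limma adjusted p = 9.01e-05). Median spot signals were 82.8 and 77.5 scanner units in the green channel, against 105 on both arrays in the red channel. The 11 erythroid markers were all measured, and 10 of them were higher and 1 was lower in ETO2 siRNA cells, though on both arrays saturation affected both channels for Hbb-bt and Hba-a1 and the control siRNA channel for Ahsp (Eraf on the array). The labels' cell type field names murine ES cells, but of 7 embryonic stem cell markers Pou5f1, Nanog and Zfp42 were not well above background, and of the 4 measured 2 were lower and 0 higher. Some markers of other blood cells were called too. Over all genes 18.4% were called higher and 22.3% lower by the test given below, the background for every count of markers here. Of 5 megakaryocyte markers Gp9 (1.19) and Pf4 (0.36) were higher and Gp1ba (-0.36) lower, of 4 measured mast cell markers Mcpt1 (0.66) and Mcpt4 (0.49) were higher, of 4 measured granulocyte and macrophage markers Fcgr3 (-0.93) and Prtn3 (-0.33) were lower, and the lymphocyte marker Cd3e (-0.26) was lower, all as log2 ratios. Fewer cells of a type and less RNA per cell cannot be told apart in such samples, and the part of maturation or of other cell types in the ratios below was not tested.

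In ETO2 siRNA cells 13 of the 38 synthetase genes rose, 2 fell and 23 did not pass the test, which was limma's test of the log2 ratio against 0 with an adjusted p threshold of 0.05 over all genes. The rises were 34.2% of the members, against a background of 18.4% of all 16585 genes called higher. The falls were 5.26% of the members, against 22.3% of all genes called lower. The median log2 ratio (ETO2 siRNA over control siRNA) was 0.096 over the synthetases and -0.018 over all genes. All changes were small, from -0.29 for Sars2 to 0.50 for Gars, which is a 1.42-fold rise.

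These calls depend on how the arrays were normalized. With the scanner software's own processed signals, 1 of the 15 called genes, Farsb, still passed the test (limma adjusted p = 0.0418), where 7.19% of all genes were called higher and 7.66% lower. The 13 genes called higher all stayed above 0 on those signals, between 0.039 for Kars and 0.42 for Farsb, and the 2 called lower stayed below 0. Of all 38 synthetases 31 were above 0 on them. The same spots gave both sets of values, so a kept sign is no separate support for a call. With median centring of each array in place of loess, 0 synthetases were called higher, and the median of all genes itself moved to -0.31. Relative to that median, 11 of the 13 risen genes were above it, all but Mars1 and Kars, and the 2 fallen genes below it. The cytosolic median minus that of all genes was then -0.15, against 0.094 after loess, and the mitochondrial median minus that of all genes was 0.012, against 0.11 after loess.

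**Figure D1:**
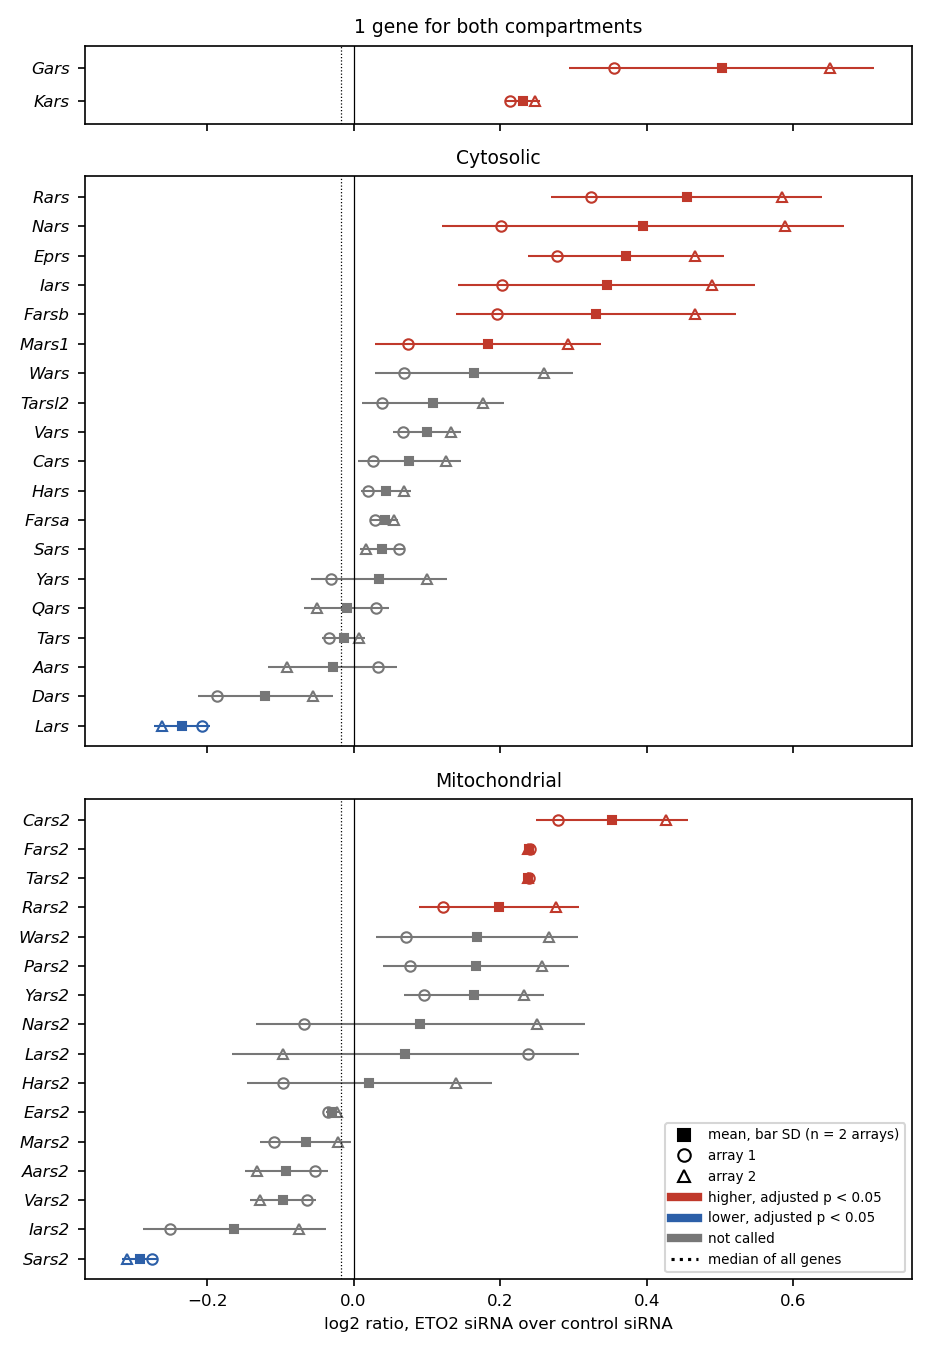
Log2 ratio (ETO2 siRNA over control siRNA, x axis) of the synthetase genes reported (y axis), with circles for array 1, triangles for array 2, and squares with bars for the mean ± SD of the 2 arrays. After loess, as drawn here, the risen genes lie right of 0 on both arrays, and Lars and Sars2 lie left of 0 on both.

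Both genes that serve the cytosol and the mitochondria rose. Gars, which makes glycyl-tRNA synthetase, had log2 signals of 11.43 and 11.65 in ETO2 siRNA cells, against 11.08 and 11.00 in control siRNA cells. Its log2 ratios were 0.35 and 0.65, with a mean of 0.50 ± 0.21 (SD, n = 2 arrays; limma adjusted p = 7.80e-05), the highest of the 38 genes. The ETO2 siRNA and control siRNA values did not overlap. Kars, the lysyl enzyme and a member of the complex, had log2 ratios of 0.21 and 0.25, a mean of 0.23 ± 0.023 (limma adjusted p = 0.00808).

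Among the 19 cytosolic genes 6 rose, Rars, Nars, Eprs, Iars, Farsb and Mars1, 1 fell, Lars, and 12 did not pass the test. The median log2 ratio of the cytosolic genes was 0.076, with 0.039 on array 1 and 0.13 on array 2. The share of cytosolic genes called higher was 31.6%, to be read against the 18.4% of all genes.

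Rars, the arginyl enzyme, had the highest cytosolic ratio. It had log2 signals of 9.94 and 9.96 in ETO2 siRNA cells, against 9.62 and 9.38 in control siRNA cells, and a log2 ratio of 0.45 ± 0.18 (SD, n = 2 arrays; limma adjusted p = 1.43e-04). Nars, the asparaginyl enzyme, stood at 12.37 and 12.58 in ETO2 siRNA cells and at 12.17 and 12.00 in control siRNA cells, a log2 ratio of 0.39 ± 0.27 (limma adjusted p = 0.00116). The groups overlapped for neither gene. For Nars, however, the arrays differed widely, with log2 ratios of 0.20 on array 1 and 0.59 on array 2, and its SD was the largest of the 38.

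Eprs, which carries the glutamyl and the prolyl activity in 1 protein, had log2 signals of 13.45 and 13.54 in ETO2 siRNA cells, against 13.18 and 13.07 in control siRNA cells, and a log2 ratio of 0.37 ± 0.13 (limma adjusted p = 4.58e-04). Iars, the isoleucyl enzyme, read 13.91 and 13.99 in ETO2 siRNA cells, against 13.71 and 13.51 in control siRNA cells, a log2 ratio of 0.35 ± 0.20 (limma adjusted p = 0.00148). For Farsb, the beta subunit of phenylalanyl-tRNA synthetase, the signals were 11.63 and 11.61 in ETO2 siRNA cells and 11.43 and 11.15 in control siRNA cells, a log2 ratio of 0.33 ± 0.19 (limma adjusted p = 0.00183). In each of these 3 genes both ETO2 siRNA values lay above both control siRNA values. These genes, like Gars, Rars, Nars and Cars2, were shown because they passed the test with a log2 ratio of at least 0.3. The separation comes from the same values and adds no support to the calls. Farsa, the alpha subunit that pairs with Farsb in the same enzyme, read 0.042 ± 0.018, which did not pass.

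**Figure D2:**
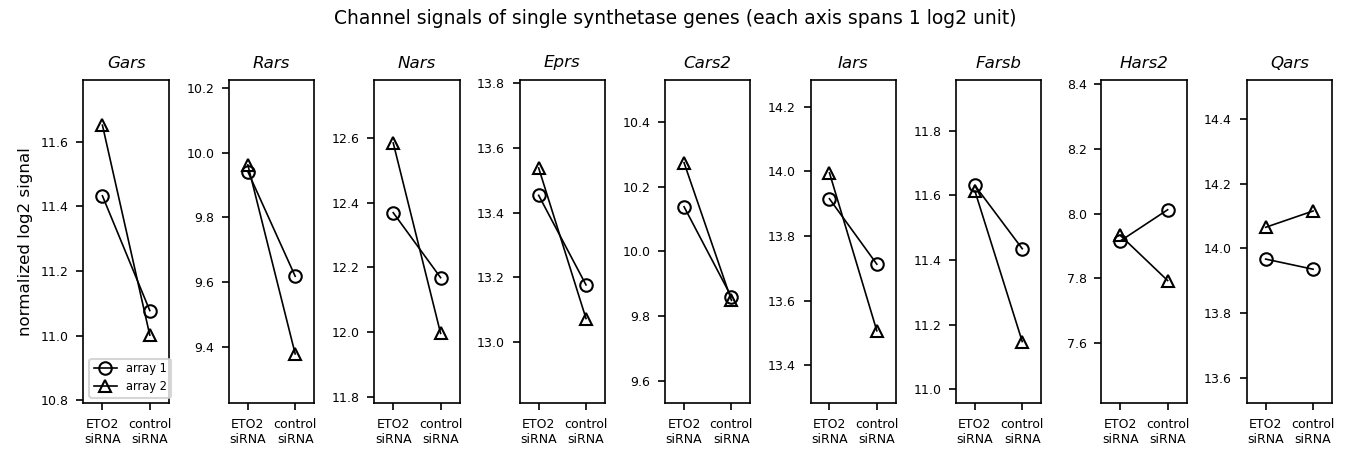
Normalized log2 signal (y axis, each spanning 1 log2 unit) of 9 synthetase genes in ETO2 siRNA and control siRNA cells, with circles for array 1 and triangles for array 2 joined by a line. The 7 genes past the test with a log2 ratio of at least 0.3 slope down from ETO2 siRNA to control siRNA on both arrays, while the lines of Hars2 and Qars slope in opposite ways on the 2 arrays.

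The remaining cytosolic rise was that of Mars1, the methionyl enzyme, with log2 ratios of 0.074 and 0.29, a mean of 0.18 ± 0.15 (limma adjusted p = 0.0428), and it was no longer called when its probes were averaged (0.042, limma adjusted p = 0.617). Lars, the leucyl enzyme, which also serves as a leucine sensor for mTORC1, was the cytosolic gene that fell, with log2 ratios of -0.21 and -0.26, a mean of -0.23 ± 0.038 (limma adjusted p = 0.0076). Other Lars probes read the other way, as described below.

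Of the cytosolic genes that did not pass the test, Wars, the tryptophanyl enzyme, came nearest, with a log2 ratio of 0.16 ± 0.13 (limma adjusted p = 0.0614). The log2 ratios were 0.11 for Tarsl2, a further threonyl enzyme, 0.10 for Vars (valyl), 0.076 for Cars (cysteinyl) and 0.044 for Hars (histidyl). Those of Sars (seryl) and Yars (tyrosyl) were 0.039 and 0.035. On the other side of 0 were Tars (threonyl) at -0.013, Aars (alanyl) at -0.029 and Dars (aspartyl) at -0.12. Qars, the glutaminyl enzyme, was nearest 0 and had log2 signals of 13.97 and 14.06 in ETO2 siRNA cells, against 13.94 and 14.12 in control siRNA cells, a log2 ratio of -0.0095 ± 0.058. Its values overlapped between the groups.

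Of the 8 measured synthetases of the multi-synthetase complex, Rars, Eprs, Iars, Kars and Mars1 rose, Lars fell, and Qars and Dars did not pass the test. Their median log2 ratio was 0.21, and the rises were 62.5% of them, against 18.4% of all genes. Of the 13 cytosolic and dual genes outside the complex 3 rose, Gars, Nars and Farsb, and 0 fell, with a median of 0.076 and a share of rises, 23.1%, near that of all genes. On the processed signals the medians nearly met, at 0.144 for the complex and 0.141 for the genes outside it. Under median centring they were -0.34 and -0.46. The difference between the complex and the other genes was not tested. Among the scaffold proteins, Aimp1 had a log2 ratio of 0.21 and Aimp2 of 0.18, both past the test, and Eef1e1 did not pass it. By enzyme class, 6 of 19 class I genes rose (31.6%) and 1 fell, and 7 of 19 class II genes rose (36.8%) and 1 fell, with 22.3% of all genes called lower.

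Among the 17 mitochondrial genes 5 rose, among them Cars2, Fars2, Tars2 and Rars2, 1 fell, Sars2, and 11 did not pass the test. The median log2 ratio was 0.091, with 0.071 on array 1 and 0.23 on array 2. Called higher were 29.4% of the mitochondrial genes, against the 18.4% of all genes.

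Cars2, the mitochondrial cysteinyl enzyme, had log2 signals of 10.14 and 10.27 in ETO2 siRNA cells, against 9.86 and 9.85 in control siRNA cells, and a log2 ratio of 0.35 ± 0.10 (SD, n = 2 arrays; limma adjusted p = 5.51e-04). The groups did not overlap, but the mean over all kept probes named Cars2 was 0.10 and was not called (limma adjusted p = 0.168). Fars2, which in mitochondria is a single-chain phenylalanyl enzyme, and Tars2, the threonyl enzyme, each read 0.24 on both arrays, with SDs of 0.0020 and 0.0013 and limma adjusted p-values of 0.00632 and 0.00645. Rars2, the arginyl enzyme, had a log2 ratio of 0.20 ± 0.11 (limma adjusted p = 0.0238). Sars2, the seryl enzyme and the lowest of the 38, had log2 ratios of -0.28 and -0.31, a mean of -0.29 ± 0.024 (limma adjusted p = 0.00165).

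Wars2, Pars2 (prolyl) and Yars2 had log2 ratios of 0.17, 0.17 and 0.16 and adjusted p-values (limma) of 0.0565, 0.0565 and 0.0537, just short of the threshold. Other matched Wars2 probes read -0.17, called lower (limma adjusted p over probes = 0.0443), and 0.0062, and the other Yars2 probe read -0.060. Averaged over kept probes, Wars2 read 0.0011 and Yars2 0.052, and neither was called (limma adjusted p = 0.991 and 0.521). Nars2 and Lars2 read 0.091 and 0.071, with SDs of 0.22 and 0.24 that exceed the values, and each had arrays of opposite sign. Ears2 (glutamyl), Mars2, Aars2, Vars2 and Iars2 read -0.029, -0.065, -0.092, -0.096 and -0.16. Another matched probe was called higher for Vars2, at 0.17, and for Iars2, also at 0.17. Hars2, the mitochondrial gene nearest 0, had log2 signals of 7.92 and 7.93 in ETO2 siRNA cells, against 8.01 and 7.79 in control siRNA cells, a log2 ratio of 0.022 ± 0.17. Its ETO2 siRNA values lay between its control siRNA values.

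The cytosolic median minus the mitochondrial median was -0.015 on the log2 scale, with -0.032 on array 1 and -0.11 on array 2. Its sign depended on the processing, with 0.062 on the scanner's processed signals, 0.048 when all kept probes of a gene were averaged, and -0.16 under median centring. With 2 arrays the smallest two-sided p of an exact sign permutation is 0.5, and the difference was left untested.

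**Figure D3:**
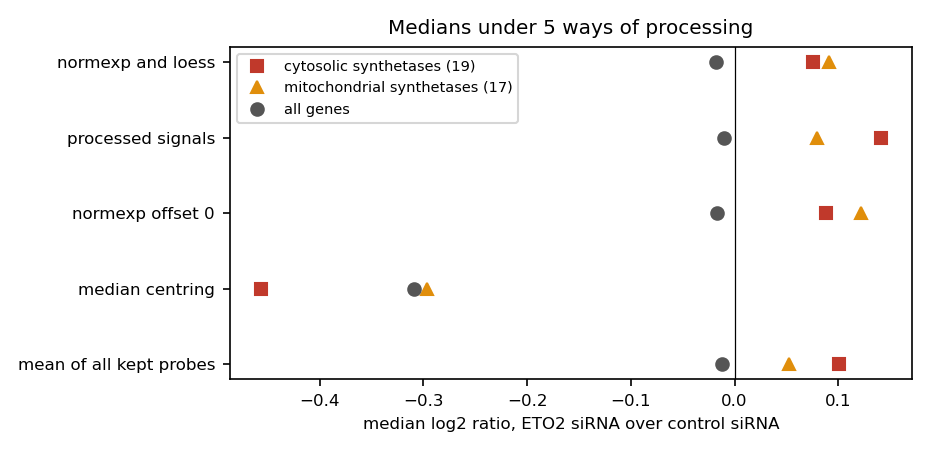
Median log2 ratio (ETO2 siRNA over control siRNA, x axis) of the 19 cytosolic synthetases, the 17 mitochondrial synthetases and all genes under 5 ways of processing (y axis). The cytosolic and mitochondrial medians change places between settings, and median centring moves all genes to -0.31 and the cytosolic median to -0.46.

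The genes were also paired by amino acid. Of 18 pairs of a cytosolic and a mitochondrial gene, the cytosolic ratio was the higher in 11, in 9 of them on both arrays, and the mitochondrial ratio was the higher in 7, on both arrays in all 7. By the brightest probes, the widest gap on the cytosolic side was in the isoleucyl pair, with 0.35 for Iars and -0.16 for Iars2. Their difference in log2 ratio (mitochondrial minus cytosolic) was -0.51. Eprs against Ears2 followed at -0.40 and Sars against Sars2 at -0.33. The other matched Iars2 probe read 0.17 and was called higher (limma adjusted p over probes = 0.0495). On the mitochondrial side the difference was 0.30 for Lars and Lars2, 0.28 for Cars and Cars2, and 0.25 for Tars and Tars2. The 7 pairs on this side include Wars with Wars2, whose difference was only 0.0019 and 0.0062 on arrays 1 and 2. Among the pairs named here, the order turned for the Lars, Cars and Wars pairs when all kept probes of a gene were averaged. Lars then read 0.21 against 0.071 for Lars2, Cars 0.17 against 0.10 for Cars2, and Wars 0.23 against 0.0011 for Wars2. The averaged values were 0.30 for Iars and 0.0060 for Iars2, a narrower gap than 0.39 for Nars against 0.030 for Nars2. Rars with Rars2 and Farsb with Fars2 were the 2 pairs in which both genes rose. The differences within pairs were not tested.

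The 2 arrays did not give equal sizes. Array 2 had the higher log2 ratio in 28 of the 38 synthetases, or 73.7%, against 46.7% of all genes. Among the 13 that rose it was the higher in 11, or 84.6%, against 60.1% of all genes called higher. The median SD between arrays was 0.093 for the synthetases and 0.062 for all genes. Of the 38, 23 were above 0 on both arrays and 8 were below 0 on both. Of all 16585 genes, 5850 were above 0 and 7260 below 0 on both arrays. All 38 were well above background in both channels on both arrays and none was saturated.

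Many synthetase genes had several probes, and these did not always agree. Over the kept probes that the description rule matched, 17 of 41 cytosolic probes were called higher and 3 lower. Of the dual probes 2 of 2 were called higher, and of the mitochondrial probes 7 of 24 higher and 2 lower. The shares over all 24430 kept probes were 18.8% and 20.7%. Aars, Cars2, Dars, Ears2, Iars and Qars each had a further kept probe that the rule did not match. These were left out here but enter the means of probes. They read -0.15 for Cars2 and 0.14 for Ears2, opposite in sign to the matched probe. Of the 20 genes with more than 1 matched probe, 8 had all of them on 1 side of 0 and 12 had them on both sides. The median range between probes of a gene was 0.26 on the log2 ratio, against a median SD between arrays of 0.088.

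Lars was the gene with probes called in opposite directions. Its brightest probe had log2 signals of 15.07 and 15.03 in ETO2 siRNA cells, against 15.28 and 15.29 in control siRNA cells. Another Lars probe read 12.89 and 13.00 in ETO2 siRNA cells, against 12.46 and 12.50 in control siRNA cells, a log2 ratio of 0.46 ± 0.047 (limma adjusted p over probes = 4.41e-05). The remaining Lars probe averaged 0.40 ± 0.63, from 0.84 on array 1 and -0.050 on array 2. The fall of Lars therefore rests on 1 of its 3 probes, and the mean of its probes was 0.21.

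Aars was not called by its brightest probe, at -0.029, but 2 of its other probes rose, at 0.46 and 0.23, and a further one read -0.088. Of the 4 Eprs probes 3 rose, at 0.37, 0.41 and 0.60, and the last read 0.11. The 2 Iars probes that the rule matched read 0.345 and 0.352, the closest match of any gene, and the Iars probe outside the rule read 0.20.

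Some of these probes are shown because they overlap within a gene, the Cars probes differing in value and the Eprs probes reading nearly alike. The 60-base sequences are those of the array files, 5′ to 3′, and capitals mark the run of 30 bases that the Cars probes share and the run of 19 bases that the Eprs probes share.
Cars, log2 ratio 0.36: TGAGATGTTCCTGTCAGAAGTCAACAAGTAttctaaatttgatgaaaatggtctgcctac
Cars, log2 ratio 0.076: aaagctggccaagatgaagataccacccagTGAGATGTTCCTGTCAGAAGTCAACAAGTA
Eprs, log2 ratio 0.37: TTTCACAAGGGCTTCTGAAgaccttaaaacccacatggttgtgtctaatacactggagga
Eprs, log2 ratio 0.41: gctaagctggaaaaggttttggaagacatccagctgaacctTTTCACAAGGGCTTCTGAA

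The first Cars probe rose, with log2 signals of 11.91 and 12.00 in ETO2 siRNA cells, against 11.58 and 11.61 in control siRNA cells (limma adjusted p over probes = 4.15e-04). The overlapping Cars probe, the brighter of the pair, did not pass the test. The overlapping Eprs probes both rose.

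**Figure D4:**
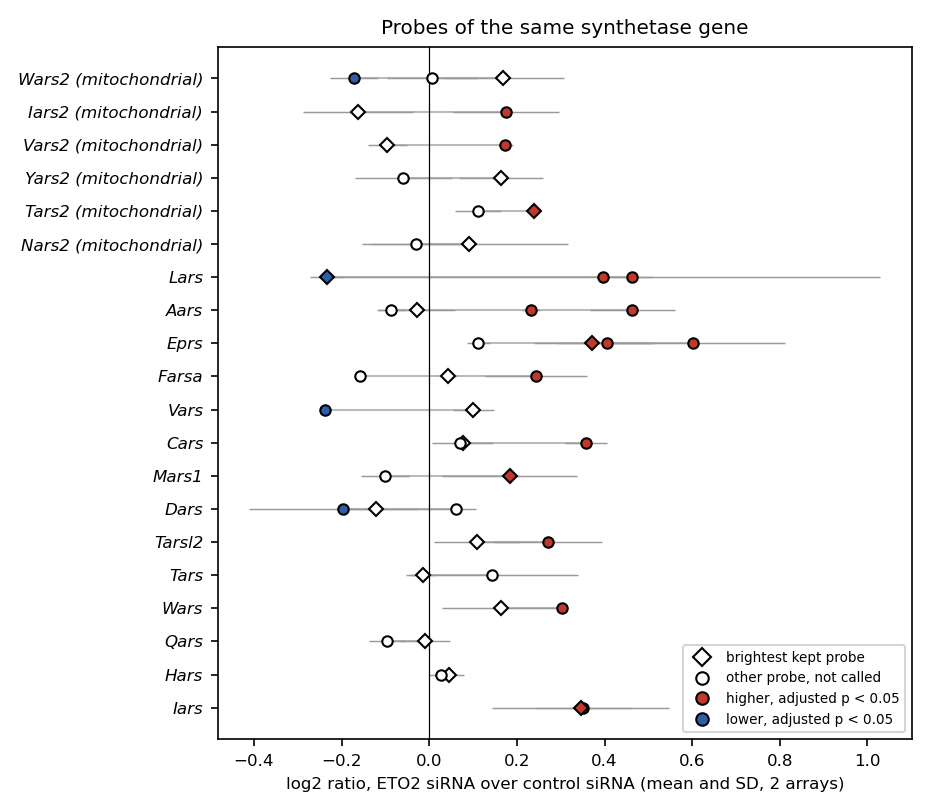
Log2 ratio (ETO2 siRNA over control siRNA, x axis; mean ± SD of 2 arrays) of every kept probe matched by the description rule, for the 20 synthetase genes with more than 1 such probe (y axis). Diamonds are the brightest probes, which stand for the genes, red and blue fills are probes called higher and lower, and 12 genes have probes on both sides of 0.

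The description rule also took 5 kept probes without a synthetase gene name. Aarsd1, an editing protein that removes wrongly attached amino acids from transfer RNA for alanine, had log2 signals of 13.06 and 13.00 in ETO2 siRNA cells, against 12.44 and 12.42 in control siRNA cells. Its log2 ratio of 0.60 ± 0.025 (limma adjusted p = 3.56e-06) exceeded that of every synthetase. The transcripts AK077897, ENSMUST00000003906, TC1619269 and TC1724578 had log2 ratios of -0.15, -0.10, -0.049 and 0.011, and none passed the test.

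Of 17 other genes of transfer RNA charging, Aarsd1 included, 3 rose, 6 fell and 8 did not pass the test, with a median log2 ratio of -0.027, against the 18.4% higher and 22.3% lower of all genes. Mtfmt, which formylates the initiator methionyl-tRNA in mitochondria, had a log2 ratio of -0.45 ± 0.019 (limma adjusted p = 4.55e-05). Gatb, a subunit of the mitochondrial enzyme that makes glutaminyl-tRNA by amidation, had -0.32 ± 0.054 (limma adjusted p = 8.98e-04), and Gatc of the same enzyme fell too, at -0.25. Trnt1, which adds the CCA end to transfer RNA, had -0.31 ± 0.068 (limma adjusted p = 0.00118). Pstk and Sepsecs, which convert seryl-tRNA to selenocysteinyl-tRNA, fell as well, at -0.16 and -0.25. On the processed signals 1 of the 17 was called higher and 1 lower.

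Of 9 mitochondrial translation factors 4 rose (44.4%), 1 fell (11.1%) and 4 did not pass the test, with a median log2 ratio of 0.11, against 18.4% and 22.3% of all genes called higher and lower. Gfm2 and Mrrf, which act together in recycling the mitochondrial ribosome, had log2 ratios of 0.33 ± 0.041 and 0.31 ± 0.035 (limma adjusted p = 6.04e-04 and 0.00118). The elongation factor Tufm read 0.20 ± 0.091 (limma adjusted p = 0.024) and its exchange factor Tsfm 0.17. The initiation factor Mtif3 fell, at -0.25 ± 0.13 (limma adjusted p = 0.00718). On the processed signals 0 of the 9 were called in either direction, and Tufm read -0.0047.

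Genes of the amino acid response moved in both directions. Of 20 measured genes 8 rose (40%), 5 fell (25%) and 7 did not pass the test, with a median of 0.11, against 18.4% of all genes called higher and 22.3% called lower. Nupr1, a stress-induced chromatin protein, had log2 signals of 12.10 and 12.17 in ETO2 siRNA cells, against 10.87 and 10.97 in control siRNA cells, a log2 ratio of 1.22 ± 0.018 (limma adjusted p = 3.59e-09). Eif4ebp1, a repressor of cap-dependent translation, and Shmt2, the mitochondrial serine hydroxymethyltransferase, rose by 0.50 each on the log2 scale (limma adjusted p = 1.89e-05 and 2.04e-05). Mthfd2 read 0.49, Ddit3 0.40, Trib3 0.27, and Atf4 itself 0.22, all past the test. Asns, which makes asparagine, was called higher too, but its probe was saturated in the control siRNA channel on both arrays, and with saturated probes left out 7 genes of the list rose. Psph, the last enzyme of serine synthesis, fell to 12.38 and 12.27 in ETO2 siRNA cells, against 12.98 in control siRNA cells on both arrays, a log2 ratio of -0.65 ± 0.079 (limma adjusted p = 1.83e-06). Psat1, of the step before it, Pck2, Aldh18a1 and Cebpb also fell, at -0.39, -0.38, -0.28 and -0.19. Atf3 was not well above background. On the processed signals 6 of the 20 were called higher and 2 lower.

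**Figure D5:**
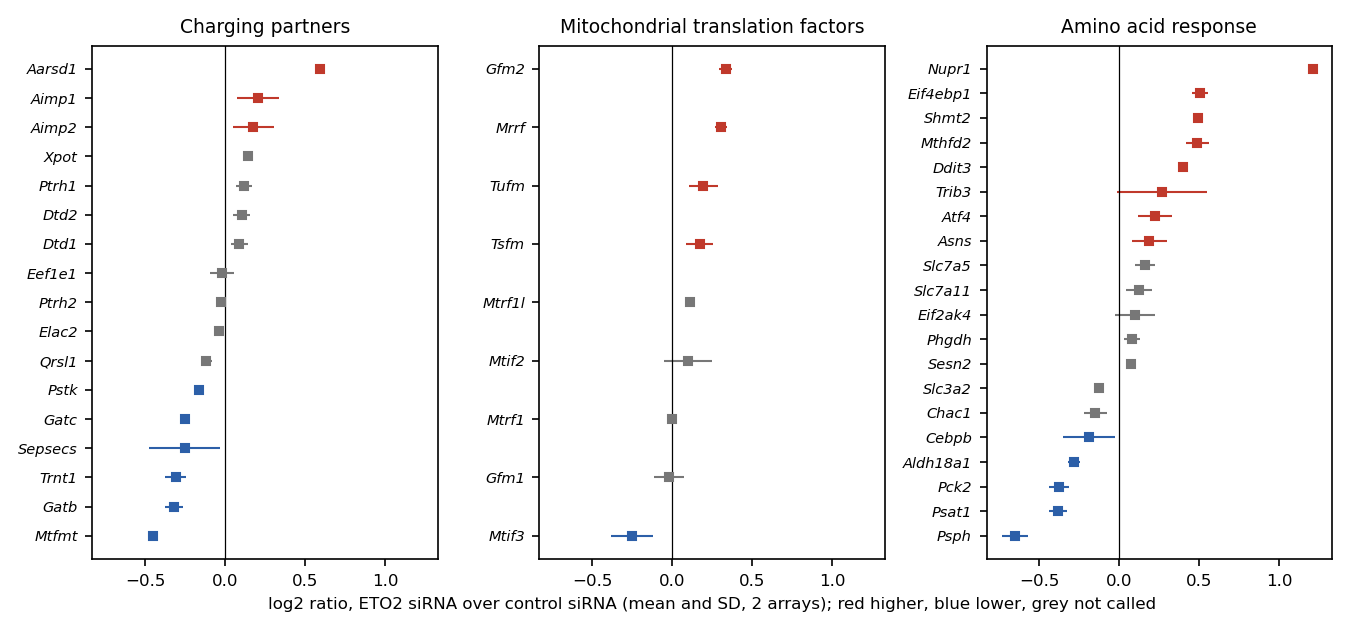
Log2 ratio (ETO2 siRNA over control siRNA, x axis; squares and bars are the mean ± SD of 2 arrays) of genes of transfer RNA charging, of mitochondrial translation and of the amino acid response (y axes). Aarsd1, Gfm2 and Nupr1 are the highest of their panels and Mtfmt, Mtif3 and Psph the lowest.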

How the data were processed

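RNA of ETO2 siRNA and control siRNA cells was hybridised together on 2 arrays. The file headers name Feature Extraction 9.1.3.1 as the scanner software, and the deposited mean and local background intensity values are on a linear scale, before any normalization. The authors' deposited processed intensity values were, per the file headers, background-subtracted and dye-normalized in that software. From these comes the deposited log10 ratio, red over green. In 9231 features on array 1 and 11218 on array 2 it differed from the log10 ratio of those values. Whether surrogate signals stood in these features was not checked. The flags for signal well above background, saturation and outliers are deposited as a score of 0 or 1, per the file headers. The series' deposited table holds the same log10 ratio within 0.0041, with a column median of 0. No genome build of the probes was stated in the labels or headers.

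Mean signals were corrected with limma 3.58.1 (R 4.3.3) by normexp (offset 50), normalized by loess within arrays, with control spots at weight 0, and scaled between arrays (Aquantile) for channel values. Outlier spots (10 and 4) were removed and spots of a probe averaged. Probes were named through RefSeq (24375 by accession, 6301 by symbol, 2426 by synonym, 8072 by the file's name). The brightest kept probe stood for a gene, and no sequence was matched to a genome. The log2 ratio of green over red, the sign of the deposited ratio turned, was tested against 0 by limma's lmFit with eBayes moderation in a two-sided test, adjusted by Benjamini-Hochberg over 16585 genes or 24430 probes. With 1 residual degree of freedom, the p-values rest on the prior (13.7 degrees of freedom, SD 0.0905). Arrays shared 1 slide and scan, so no batch could be compared, and their number limits the precision. The steps were tested on data simulated with independent noise and no dye effect, so that test says nothing about such an effect. In it 50% of 1.2-fold and 94% of 1.5-fold changes were recovered.

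Members and lists were chosen with earlier results of these data known. Some listed genes are not reported here, though counts and medians include them. Named were the other synthetase genes, with channel values for those past the test by at least 0.3 and those nearest 0, and up to 4 genes of each other list, and further list members past the test were named after their values were seen. Alternatives were the processed signals, the deposited ratio, offset 0, median centring, the mean of probes, no or a stricter filter, saturated probes left out, an intensity trend and each array left out.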

Additional observations from a re-analysis of the deposited data

How the results depend on the processing

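Leaving out an array gives values with no test, since 1 array leaves no residual degree of freedom, and with 2 arrays a gene's value without 1 of them cannot move by more than its SD, which says nothing about stability. The medians on single arrays ran from 0.039 to 0.13 for cytosolic, 0.28 to 0.45 for dual and 0.071 to 0.23 for mitochondrial synthetases, from -0.047 to -0.0076 for the other charging genes, 0.11 to 0.13 for mitochondrial translation factors, 0.079 to 0.15 for the amino acid response and -0.026 to -0.014 for all genes, and the cytosolic minus mitochondrial median from -0.11 to -0.032. Of the 15 called synthetases, all 15 kept direction and call without the filter on dim probes, with the stricter filter, without saturated probes and with an intensity trend, which added a call of Wars. Offset 0 ended 2 calls, and the mean of probes ended 2, turned Lars to 0.21 (limma adjusted p = 0.0364) and added calls of Cars, Tarsl2 and Wars, so that 9 cytosolic genes were called higher, against 6. The slide as a block was not run, since both arrays shared 1 slide. No paired analysis was possible because each array already holds both groups and there is 1 group of ratios.

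On the processed signals the calls were 1 higher and 0 lower for cytosolic, 0 higher for dual, and 0 higher and 0 lower for mitochondrial synthetases, 1 higher and 1 lower for the other charging genes, 0 and 0 for mitochondrial translation factors, 6 higher and 2 lower for the amino acid response, and 1193 higher and 1270 lower for all genes, against 3055 and 3699. The medians were 0.141 (cytosolic), 0.185 (dual), 0.0179 (charging) and 0.041 (translation factors), the cytosolic minus mitochondrial median was 0.0617, and Tufm read -0.0047. The authors' deposited ratio gave the same counts of listed genes, 1142 and 1220 for all genes, medians of 0.141, 0.185, 0.0178 and 0.0409, a difference of 0.0616, and -0.0047 for Tufm. Both ended 14 of the 15 calls, and the cause was not tested.

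Median centring put the median of all genes at -0.31 (464 higher, 10807 lower), and values are best read relative to that. It called 0 higher and 16 lower among cytosolic, 0 and 1 among dual and 0 and 14 among mitochondrial synthetases, 0 and 16 among the other charging genes, 0 and 8 among translation factors and 2 and 12 in the amino acid response. The medians were -0.46, -0.15, -0.30, -0.57, -0.38 and -0.28 in that order, and the cytosolic minus mitochondrial median was -0.16. Relative to all genes the cytosolic median was -0.15 and the mitochondrial 0.012. Signs turned for Cars (-0.45), Eprs (-0.19), Farsa (-0.48), Farsb (-0.15), Hars (-0.51), Iars (-0.24), Mars1 (-0.35), Nars (-0.13), Sars (-0.56), Tarsl2 (-0.46), Vars (-0.42), Wars (-0.43), Yars (-0.50) and Kars (-0.33). Among mitochondrial genes they turned for Cars2 (-0.062), Fars2 (-0.16), Hars2 (-0.24), Lars2 (-0.53), Nars2 (-0.29), Pars2 (-0.19), Rars2 (-0.30), Tars2 (-0.30), Yars2 (-0.28) and Wars2 (-0.16), and among the others for Gfm2 (-0.17), Mrrf (-0.25), Tufm (-0.37), Eif4ebp1 (-0.095) and Shmt2 (-0.12).

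With offset 0, 1 of the other charging genes was called higher, and 2 translation factors higher and 0 lower. The mean of probes called 0 cytosolic genes lower and gave a cytosolic minus mitochondrial median of 0.0485. Without the filter the median of all genes was -0.0056.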
